A study of Homo sapiens with 87 samples.

Results

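The genes described here are the 7 ABC efflux transporters most often discussed in multidrug resistance: ABCB1, ABCG2, ABCC1, ABCC2, ABCC3, ABCC4 and ABCC5. They were chosen by name, with earlier results of these data known, including that ABCB1 moves in both directions. The choice was made out of 35438 genes listed in each of 2 deposited gene-level count tables. Of the 7, 6 passed the filter on low counts in each table, among 16159 genes tested in the first and 14601 in the second; ABCC3 did not pass it in either. All libraries come from HAP1, a near-haploid human cell line derived from a chronic myeloid leukaemia line, whose single gene copies make knockouts simple to obtain. The study disrupted subunits of BAF, the SWI/SNF chromatin remodelling complex, one gene at a time, and asked what each loss does to transcription.

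The knockout table holds 75 libraries, 3 for wild-type cells (WT) and 3 for each of 24 knockout clones. The clones cover 22 genes: ACTB, ARID1A, ARID1B, ARID2, BCL11A, BCL11B, BCL7A, BCL7B, BRD7, BRD9, DPF1, DPF2, DPF3, PBRM1, PHF10, SMARCA2, SMARCA4, SMARCC1, SMARCC2, SMARCD1, SMARCD2 and SMARCD3. ARID1A was represented by the clones 618-10 and 618-3 and SMARCA4 by the clones 2878-4 and 2878-6. For each of the remaining genes there was a single clone, and what the loss of the gene did cannot be told apart from anything else that sets the clone apart. The table called double-loss here has 12 libraries, with 2 for each of 6 conditions. These are WT cells with a control knockdown, WT cells with knockdown of both SMARCA4 and ARID2, ARID2 knockout cells with a control or a SMARCA4 knockdown, and SMARCA4 knockout cells with a control or an ARID2 knockdown. The labels do not say that replicate libraries came from separate cultures, so p-values measure only the spread between these libraries.

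ABC transporters are membrane pumps that use ATP hydrolysis to move substrates across a lipid bilayer. ABCB1 encodes P-glycoprotein, which expels many bulky hydrophobic drugs, and ABCG2 encodes the breast cancer resistance protein, a half-size pump that works as a dimer. The ABCC genes encode the multidrug resistance proteins, which carry organic anions and glutathione or glucuronide conjugates: ABCC1 in most tissues, ABCC2 and ABCC3 mainly in liver and gut, ABCC4 and ABCC5 with a preference for cyclic nucleotides and nucleotide analogues. High ABCB1 or ABCG2 is a long-known feature of drug-resistant cultured cells, and both genes are also active in normal stem and barrier cells.

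The stretches in front of the starts of ABCB1, ABCG2 and ABCC2 are shown first, because these are the members whose RNA differed between clones. They are the 5′ to 3′ strand of the gene as RefSeq gives it on GRCh38.p14, trimmed so that no GENCODE transcript of the gene covers them. Which start HAP1 cells use was not measured. Capitals mark matches, on either strand, to any of 5 motifs searched: ATTGG (the inverted CCAAT box), GGGCGG (the GC box), TATAAA (the TATA box), TGANTCA (the AP-1 site) and TGACNNNGC (the antioxidant response element).
ABCB1, upstream start, chr7:87713324-87713545, minus strand: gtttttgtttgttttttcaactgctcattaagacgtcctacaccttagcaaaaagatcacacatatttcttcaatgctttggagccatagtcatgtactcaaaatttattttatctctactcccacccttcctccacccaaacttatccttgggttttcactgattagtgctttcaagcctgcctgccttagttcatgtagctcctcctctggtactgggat
ABCB1, downstream start, chr7:87601081-87601134, minus strand: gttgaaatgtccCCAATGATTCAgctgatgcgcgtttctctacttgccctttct
ABCG2, upstream start, chr4:88159324-88159540, minus strand: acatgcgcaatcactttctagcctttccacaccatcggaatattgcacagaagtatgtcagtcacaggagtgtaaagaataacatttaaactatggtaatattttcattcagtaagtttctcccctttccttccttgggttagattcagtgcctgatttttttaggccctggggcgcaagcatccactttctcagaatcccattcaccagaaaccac
ABCG2, downstream start, chr4:88159025-88159159, minus strand: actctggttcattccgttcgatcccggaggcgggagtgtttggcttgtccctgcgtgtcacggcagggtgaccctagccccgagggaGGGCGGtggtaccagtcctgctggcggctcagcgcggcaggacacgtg
ABCC2, chr10:99782390-99782639, plus strand: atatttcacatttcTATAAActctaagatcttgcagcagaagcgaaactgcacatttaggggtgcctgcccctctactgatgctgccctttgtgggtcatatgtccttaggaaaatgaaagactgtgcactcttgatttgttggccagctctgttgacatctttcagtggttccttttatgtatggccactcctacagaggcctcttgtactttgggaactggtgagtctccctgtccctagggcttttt

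In the ABCB1 stretch at the downstream start, the inverted CCAAT box and the AP-1 site share 1 base. Among 35116 RefSeq windows of 250 bases before a start, 32.0% held an inverted CCAAT box and 6.6% an AP-1 site. The stretches printed for the downstream starts are shorter, 54 bases for ABCB1 and 135 for ABCG2. The full 250 bases held 2 inverted CCAAT boxes and 1 AP-1 site for ABCB1, and 2 GC boxes for ABCG2. The GC box letters matched at the ABCG2 downstream start have a match in 42.6% of windows, and the TATAAA letters matched in ABCC2 in 10.7%. The ABCC2 match lies near the far end of its 250 bases, away from the listed start. Base composition also differed between the members. The 250 bases before the ABCB1 upstream start were 39.2% G or C with 1 CpG dinucleotide, those before the ABCC2 start 45.6% with 1 CpG, and those before the ABCG2 upstream start 43.6% with 5. By contrast, the ABCC4 window was 80.4% G or C with 42 CpG dinucleotides, more CpG than 98.6% of windows, and the ABCC5 window 64.8% with 21. At the downstream starts ABCB1 had 55.6% with 12 CpG and ABCG2 71.2% with 27.

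Library totals ranged from 14917644 to 29993652 counts for the knockouts, and for the double-loss libraries from 9144150 to 19789622. The lowest value in both tables is 1, and between 39.94 and 49.13% of the listed genes stood at it in any one library. Of the knockout libraries, 71 of 75 were closest in expression to a library of their own group; the exceptions were ARID1A 618-10 replicate 1, DPF3 replicate 3, SMARCD3 replicate 1 and WT replicate 3. In the double-loss table this held for 9 of 12, the exceptions being both WT control libraries, closest to the WT double knockdown, and replicate 1 of SMARCA4 knockout with control knockdown. RNA of the knocked-out gene was called lower in 14 of 24 clones, and all 3 libraries lay below every WT library in 20. In the double-loss table SMARCA4 RNA fell by 4.02 on the log2 scale in ARID2 knockout cells with SMARCA4 knockdown (edgeR adjusted p = 0.000826) and by 3.66 in SMARCA4 knockout cells (adjusted p = 0.000916). In the WT double knockdown the SMARCA4 difference was -1.84 (adjusted p = 0.104), and the ARID2 differences in the groups that lost ARID2 lay between -0.60 and -0.15 (adjusted p between 0.262 and 0.882), so the RNA does not show the loss of ARID2 there and it rests on the labels. Markers of A549, a lung carcinoma line whose culture the labels also describe, summed to 1.28 to 8.67 CPM over all libraries (CPM is a count scaled to a common library total).

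A comparison of levels between genes needs values per gene length, for which the authors' quantile-normalized log2 TPM table was used. In WT cells ABCC1 had the highest level of the 7 members at 6.14 ± 0.05 log2 TPM (SD, n = 3), above 90.9% of genes in the table. ABCC4 (5.26 ± 0.12) and ABCC5 (5.25 ± 0.11) followed and did not differ beyond their spread. ABCB1 stood at 3.70 ± 0.27, and ABCC2 far lower at 0.14 ± 0.03. At the low end, ABCG2 (-1.72 ± 0.27) and ABCC3 (-2.18 ± 0.79) overlapped. In WT cells ABCB1 lay above 74.9% of genes in that table, ABCC2 above 63.6%, ABCG2 above 57.1% and ABCC3 above 54.7%.

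Against WT, a member was called where the edgeR quasi-likelihood test gave a Benjamini-Hochberg adjusted p, over all genes tested, of at most 0.05 and the absolute log2 fold change was at least 1. Of 144 tested pairs of a member and a clone, 12 were called higher and 9 lower; over all genes, 2.46% of such pairs were called higher and 2.24% lower. The calls belonged to ABCB1 (3 clones higher, 7 lower), ABCG2 (6 higher, 1 lower) and ABCC2 (3 higher, 1 lower). ABCC1, ABCC4 and ABCC5 were called in none of the 24 clones. At least 1 member was called in 12 clones, and none in the other 12.

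**Figure D1:**
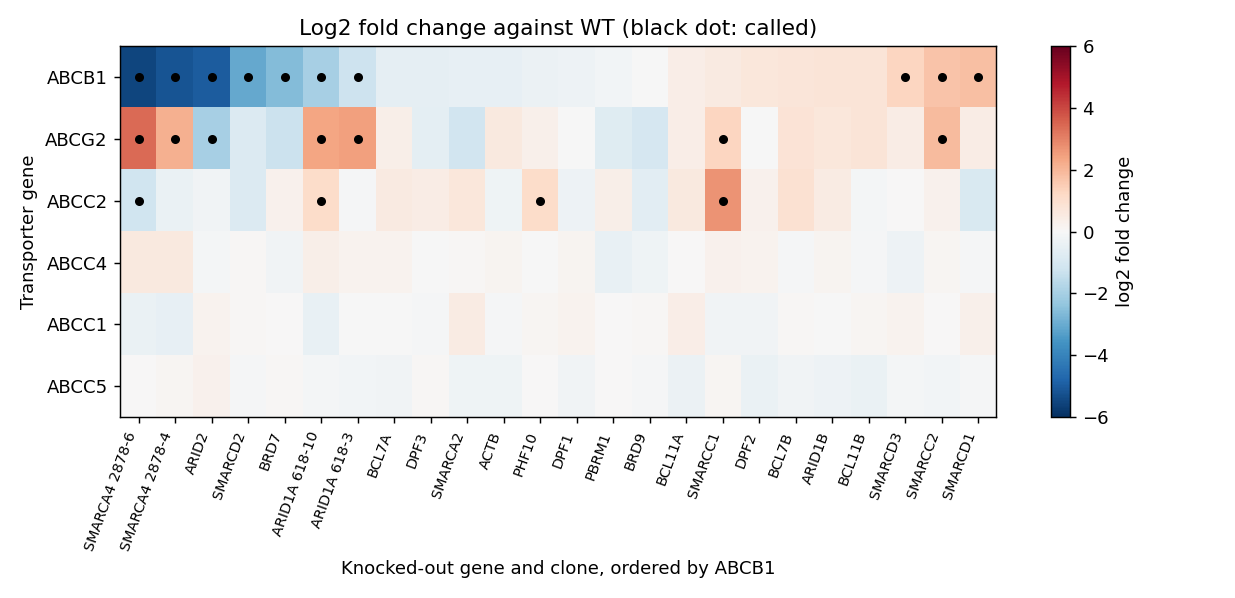
Log2 fold change of the 6 tested transporters (rows) in the 24 knockout clones (columns, ordered by ABCB1) against WT; red is higher, blue lower, and a black dot marks a call. ABCB1 runs from -5.50 to 1.81 while ABCC1, ABCC4 and ABCC5 stay within 0.58 of 0.

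ABCB1 spanned 167-fold between its lowest and highest group mean, from 0.279 CPM in SMARCA4 clone 2878-6 to 46.5 CPM in the SMARCD1 clone. The standard deviation of its 25 group means was 1.97 on the log2 scale, larger than that of 99.28% of tested genes, whose median was 0.23; within groups its standard deviation was 0.32. Only 3.4% of tested genes were called in at least 10 clones as ABCB1 was, and 7.04% of genes were called in both directions. ABCB1 was chosen with its moves in both directions known, so these shares describe it and are no independent support. In bulk RNA, fewer cells with the transcript and less transcript per cell cannot be told apart.

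ABCB1 was lowest in the clones without SMARCA4, the catalytic ATPase of BAF. WT libraries held 15.3, 13.3 and 10.4 CPM. SMARCA4 clone 2878-6 had 0.162, 0.447 and 0.228 CPM, from 3, 9 and 5 counts, and its difference from WT was -5.50 (log2, SE 0.34, adjusted p = 2.075e-20; 10.2% of genes were called in this clone). The other SMARCA4 clone, 2878-4, had 0.506, 0.325 and 0.233 CPM and a difference of -5.18 (SE 0.33, adjusted p = 4.92e-20; 11.3% of genes called). The clone without ARID2, a subunit found only in the PBAF form of the complex, had 0.529, 0.381 and 0.282 CPM and a difference of -4.997 (SE 0.32, adjusted p = 4.005e-19; 5.53% of genes called). These 9 libraries overlapped one another and all lay below every other library.

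A step above them stood the clones without SMARCD2, a core subunit, and BRD7, a bromodomain subunit of PBAF. SMARCD2 libraries held 1.41, 1.66 and 1.55 CPM, a difference of -3.08 (SE 0.27, adjusted p = 5.561e-14; 2.8% of genes called). BRD7 libraries held 2.75, 2.24 and 1.45 CPM, a difference of -2.62 (SE 0.26, adjusted p = 3.634e-12; 3.55% of genes called). The 2 groups overlapped. Not all PBAF subunits gave a call: the PBRM1 clone had 14.2, 10.7 and 10.5 CPM and the PHF10 clone 9.86, 11.7 and 8.54 CPM, both overlapping WT, with log2 differences of -0.17 and -0.37.

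Both clones without ARID1A, the subunit that defines canonical BAF together with its paralog ARID1B, also had less ABCB1. Clone 618-10 held 5.79, 2.12 and 2.01 CPM (difference -1.99, SE 0.25, adjusted p = 2.143e-09; 6.28% of genes called). With replicate 1 of every clone left out, among them the 618-10 library that resembled clone 618-3, the difference was -2.64. Clone 618-3 held 7.67, 4.47 and 4.63 CPM (difference -1.24, SE 0.23, adjusted p = 3.27e-05; 6.1% of genes called). Every library of both clones lay below every WT library. The ARID1B clone was on the other side of WT, with 21.1, 24.6 and 19.9 CPM and a log2 difference of 0.75 (adjusted p = 0.00743), short of the fold threshold.

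ABCB1 was higher in the clones without SMARCD1, SMARCC2 and SMARCD3, which are core subunits with close paralogs. SMARCD1 libraries held 41.6, 44.1 and 53.8 CPM, a difference of 1.81 (SE 0.22, adjusted p = 3.043e-09; 4.57% of genes called). SMARCC2 libraries held 41.7, 39.7 and 50.7 CPM, a difference of 1.72 (SE 0.22, adjusted p = 7.91e-09; 6.49% of genes called). This is the one group of the table whose labels name no clone, and its libraries carry accession numbers of the same run as the double-loss libraries. WT cells with control knockdown held 36.0 and 25.7 CPM of ABCB1 and 0.829 and 1.15 CPM of ABCG2 in that table, so the loss of SMARCC2 cannot be told apart from a separate preparation in either gene. SMARCD3 libraries held 33.1, 30.8 and 33.6 CPM, a difference of 1.29 (SE 0.22, adjusted p = 1.203e-05; 3.47% of genes called). The first 2 of these groups overlapped, and SMARCD3 lay below both and above all remaining groups. Paralogs therefore lay on different sides of WT in the SMARCD family, where the SMARCD2 clone was called lower and the SMARCD1 and SMARCD3 clones higher. The SMARCC1 clone held 19.4, 19.2 and 17.8 CPM, a difference of 0.53 that was not called (adjusted p = 0.0936).

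The remaining clones formed a middle group. BCL11B (0.79), BCL7B (0.73) and DPF2 (0.69) passed the adjusted p without reaching the fold threshold, as ARID1B did, with adjusted p between 0.00743 and 0.0405 for the 4. Group means from DPF3 (8.83 CPM) through BCL7A, SMARCA2, ACTB, PHF10, DPF1, PBRM1 and BRD9 to BCL11A (17.2 CPM) were not called, and most of these groups overlapped WT. SMARCA2, the paralog of SMARCA4, had 9.05, 8.56 and 9.76 CPM (log2 difference -0.51, adjusted p = 0.29), just below the WT libraries.

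**Figure D2:**
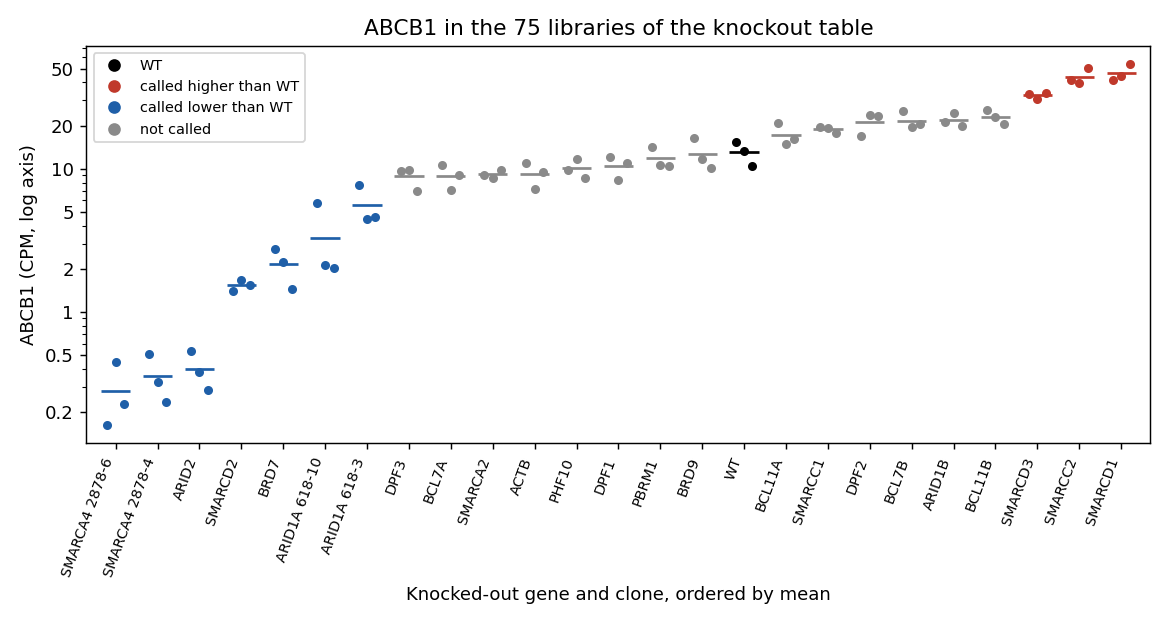
ABCB1 in CPM (log axis) in each of the 75 libraries of the knockout table, 3 points a group with a bar at the mean, groups ordered by mean. The SMARCA4 and ARID2 clones lie below 0.53 CPM, WT between 10.4 and 15.3, and the SMARCD1, SMARCC2 and SMARCD3 clones at 30.8 or more.

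The genes whose group means followed ABCB1 most closely over the 25 groups, by Pearson's r of log2 CPM, were NSG1, RUNDC3B, TTC6, ZBED3 and SFRP1. Their r values were 0.93, 0.91, 0.90, 0.88 and 0.88, in that order, given as a description of groups that share one WT and one scaling. NSG1, which encodes an endosomal protein of neurons, was called in 1 clone higher and 7 lower, and SFRP1, a secreted WNT antagonist, in 7 higher and 8 lower. RUNDC3B overlaps ABCB1 in the RefSeq annotation. The sources used here do not say whether counting used strand, so it is not known how reads from the stretch shared by these 2 genes were assigned. RUNDC3B averaged 3.28 ± 0.75 CPM in WT (SD, n = 3) and was called lower in SMARCA4 clones 2878-4 (0.743 ± 0.044 CPM, log2 difference -2.10, adjusted p = 2.544e-07) and 2878-6 (1.28 ± 0.41 CPM, -1.35, adjusted p = 0.000245), and higher in the SMARCD1 clone (8.24 ± 0.44 CPM, 1.31, adjusted p = 0.000183).

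**Figure D3:**
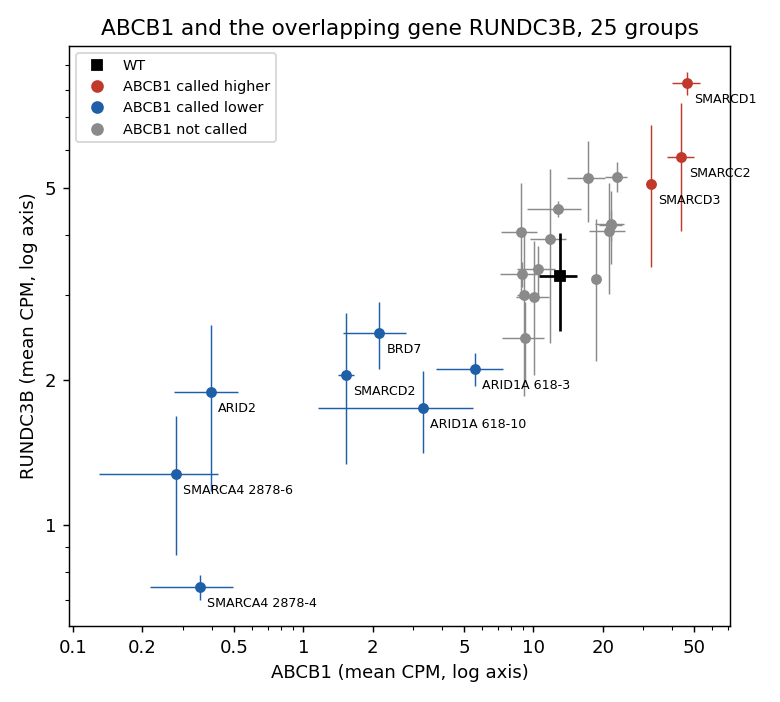
Group means with SD (n = 3) of ABCB1 and of the overlapping gene RUNDC3B, both in CPM on log axes, coloured by the ABCB1 call. The 6 lowest RUNDC3B means all belong to clones with ABCB1 called lower, and the remaining such clone, BRD7, lies at 2.50 CPM of RUNDC3B, beside ACTB at 2.44.

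Of 10 listed neighbours of ABCB1 on 7q21, 8 were tested, and of their 192 gene-clone pairs 4.17% were called higher and 2.08% lower, beside 2.46% and 2.24% over all genes. Beside the 3 calls of RUNDC3B, all belonged to CROT, which encodes a peroxisomal carnitine acyltransferase, with 7 clones higher and 2 lower. CROT stood at 3.07 ± 0.19 CPM in WT, and its losses were in the PHF10 clone (0.0506 CPM, log2 difference -5.76, adjusted p = 5.323e-15) and the ACTB clone (0.148 CPM, -4.29, adjusted p = 1.176e-13), where ABCB1 was not called. CROT and ABCB1 were both called higher in the SMARCD1, SMARCC2 and SMARCD3 clones, and CROT alone in the ARID1B, BCL11B, BRD9 and SMARCA2 clones. ABCB4, the closest paralog of ABCB1 and its neighbour, averaged 0.157 CPM and did not pass the filter.

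ABCG2 was scarce in WT, at 0.224, 0.315 and 0.316 CPM from 4, 7 and 7 counts. It was called higher in 6 clones, among them all 4 clones without SMARCA4 or ARID1A in which ABCB1 was called lower. SMARCA4 clone 2878-6 held 3.29, 2.48 and 3.33 CPM, a log2 difference of 3.38 (SE 0.33, adjusted p = 1.124e-12). Clone 2878-4 held 1.41, 1.07 and 1.31 CPM, a difference of 2.13 (SE 0.36, adjusted p = 1.712e-06). Every library of both clones exceeded every WT library, yet the clones also differed from each other by 1.25 (2878-6 minus 2878-4, SE 0.28, adjusted p = 0.00184; 1.85% of genes were called between them).

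The ARID1A clones resembled each other in ABCG2. Clone 618-3 held 1.95, 1.52 and 1.46 CPM (difference from WT 2.46, SE 0.35, adjusted p = 9.042e-08), and clone 618-10 held 1.55, 1.41 and 1.58 CPM (2.36, SE 0.35, adjusted p = 2.921e-07). Their difference was -0.10 (adjusted p = 0.965; 1.26% of genes called between these clones). ABCG2 was also higher in the clones without the scaffold subunits SMARCC2 (0.934, 0.761 and 1.76 CPM; 1.92, SE 0.36, adjusted p = 2.344e-05) and SMARCC1 (0.683, 0.884 and 0.578 CPM; 1.29, SE 0.38, adjusted p = 0.00981; 6.1% of genes called in this clone). The SMARCC1 call was lost without WT replicate 1 or without replicate 2 of every clone, with adjusted p up to 0.0788.

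The ARID2 clone was the only one called lower in ABCG2, at 0.0962, 0.0544 and 0.0471 CPM. These stand for 2, 1 and 1 counts, at or next to the lowest value in the table. WT was 4.37 times higher, with a counting interval from 1.44 to 17.8, and the fitted difference was -2.01 (SE 0.58, adjusted p = 0.0213). The call was lost without WT replicate 2 or 3, and without replicate 2 or 3 of every clone with WT kept. It was also lost without the 4 libraries closest to another group and with DESeq2's Wald test, with adjusted p up to 0.0839 over all alternatives. With 1 subtracted from every count the difference was -3.43. ABCB1 and ABCG2 were thus both called lower in this clone, both higher in the SMARCC2 clone, and in opposite directions in the SMARCA4 and ARID1A clones. Over the 25 groups their means had an r of -0.17.

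Summed over the list, fibroblast markers were high in some of the same clones. Taken singly they went both ways: of 120 tested gene-clone pairs, 24.2% were called higher and 25.8% lower, beside 2.46% and 2.24% over all genes. COL1A1 alone held 22.8 ± 2.1 CPM in WT (SD, n = 3), most of the sum there. The 7 fibroblast markers listed (COL1A1, COL3A1, PDGFRB, THY1, POSTN, DCN and LUM) summed to 23.3 to 28.7 CPM in WT, 224 to 391 CPM in the SMARCA4 clones and 42.8 to 88.9 CPM in the ARID1A clones. In the SMARCC2 and SMARCC1 clones they summed to 24.5 to 35.3 CPM, close to WT, and in the ARID2 clone to 39.1 to 43.9 CPM. The ACTB clone (114 to 121 CPM) and the BCL7A clone (81.6 to 94.9 CPM) also lay far above WT, with neither ABCG2 nor ABCB1 called. Of the other clones with ABCB1 called lower, SMARCD2 had 53.6 to 54.9 CPM and BRD7 19.9 to 27.9 CPM. DCN and LUM averaged 0.0886 and 0.0978 CPM over the table and did not pass the filter. Other marker lists moved as well. Of the blood lineage pairs 16.7% were called higher and 29.2% lower, and of the pairs for the HEK293 cell line 16.7% and 31.9%. Blood lineage markers summed to 29.8 to 37.2 CPM in WT, 6.08 to 8.40 CPM in SMARCA4 clone 2878-4 and 51.7 to 63.3 CPM in clone 2878-6. The part of any of these markers in the ABCG2 and ABCB1 values was not tested. The genes most like ABCG2 over the groups were NTN1, which encodes the guidance cue netrin-1 (r = 0.86), and the transcription factor gene GATA6 (r = 0.85, called higher in 7 clones).

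**Figure D4:**
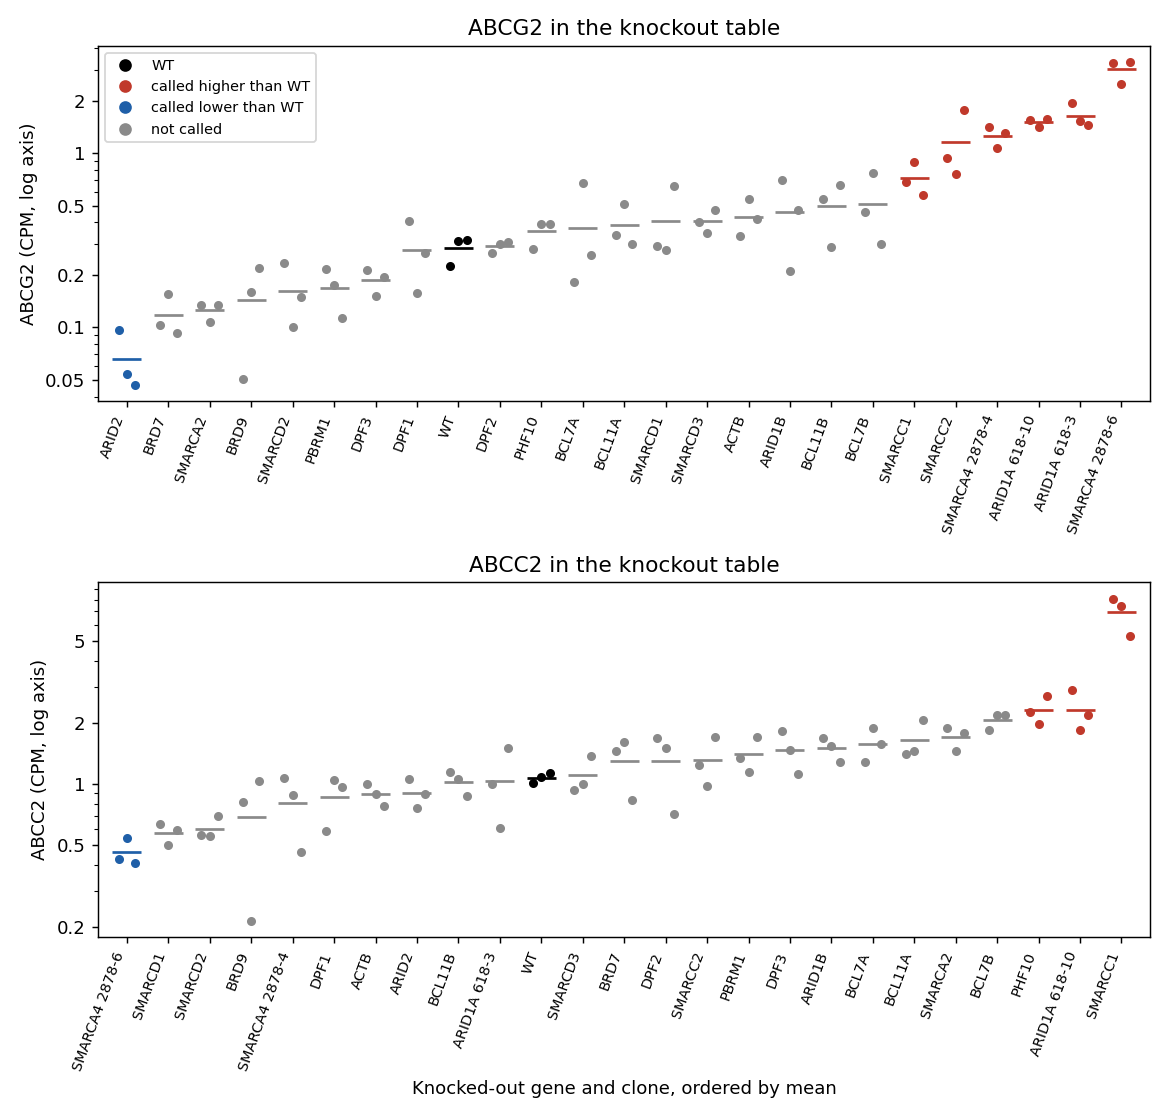
ABCG2 (top) and ABCC2 (bottom) in CPM (log axes) in each library of the knockout table, 3 points a group with a bar at the mean. ABCG2 lies above 1 CPM in every library of both SMARCA4 and both ARID1A clones, and ABCC2 above 5.3 CPM only in the SMARCC1 clone.

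ABCC2 had its highest level in the clone without SMARCC1. Libraries of this clone held 8.09, 7.44 and 5.30 CPM, against 1.01, 1.08 and 1.13 CPM in WT, a log2 difference of 2.68 (SE 0.28, adjusted p = 2.602e-11). The paralog clone, SMARCC2, had 1.23, 0.978 and 1.71 CPM, a difference of 0.24 (adjusted p = 0.587). Smaller calls above WT were found in the clone without PHF10, a PBAF subunit (2.24, 1.96 and 2.70 CPM; 1.10, SE 0.29, adjusted p = 0.0106; 2.68% of genes called), and in ARID1A clone 618-10 (2.89, 1.85 and 2.17 CPM; 1.09, SE 0.29, adjusted p = 0.00473). The second ARID1A clone, 618-3, held 1.00, 0.609 and 1.51 CPM and overlapped WT. The difference between the 2 ARID1A clones was itself called (618-10 minus 618-3, 1.15, SE 0.30, adjusted p = 0.017).

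ABCC2 was lower in SMARCA4 clone 2878-6, at 0.431, 0.546 and 0.410 CPM (-1.20, SE 0.35, adjusted p = 0.00531). Clone 2878-4 had 1.07, 0.882 and 0.466 CPM (-0.40, adjusted p = 0.367), and the 2 clones did not differ by the test (adjusted p = 0.351). Calls for PHF10, ARID1A 618-10 and SMARCA4 2878-6 were each lost without replicate 1 of every clone, with adjusted p up to 0.0995 over all alternatives. The PHF10 call was also lost without replicate 3 of every clone, the ARID1A 618-10 call without the 4 libraries closest to another group, and both by limma on log2 TPM. SLC15A1, a proton-coupled peptide transporter gene (r = 0.78), and RASGRF2 (r = 0.77) were most like ABCC2 over the groups.

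ABCC4 varied within narrow limits, with group means from 28.9 to 56.4 CPM. Its 3 libraries in WT held between 35.3 and 42.3 CPM. Both SMARCA4 clones lay above them, with 52.3 to 60.1 CPM in 2878-4 and 54.2 to 60.3 CPM in 2878-6, differences of 0.58 in both (SE 0.10; adjusted p = 1.376e-06 and 1.324e-06). These passed the adjusted p and not the fold threshold, as did ARID1A 618-10 (0.34, adjusted p = 0.00583) and SMARCC1 (0.26, adjusted p = 0.0498) above WT and PBRM1 (-0.42, adjusted p = 0.00151) and SMARCD3 (-0.29, adjusted p = 0.0491) below it. Over the groups ABCC4 had an r of 0.72 with ABCG2. LRP4, a membrane receptor gene, was most like it (r = 0.92), followed by PRDM1 (r = 0.84).

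ABCC1 group means lay between 49.8 and 98.4 CPM, with log2 differences from -0.48 to 0.48 and none past the adjusted p. WT libraries held 67.1 to 74.0 CPM. The lowest means, in the SMARCA4 and ARID1A 618-10 clones, had wide spreads, such as 35.7 to 68.4 CPM in SMARCA4 2878-4. CEP41 was among the genes most like ABCC1 over the groups (r = 0.78). ABCC5 ranged from 28.4 to 44.8 CPM, with 35.1 to 41.3 CPM in WT; the DPF2 clone alone passed the adjusted p (-0.42, adjusted p = 0.0394), below the fold threshold. PNISR and SREK1, both linked to RNA splicing, were most like it (r = 0.82 and 0.78).

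ABCC3 was at or near the lowest value throughout, with 1 to 10 counts (0.0481 to 0.499 CPM) in the 75 libraries. Fitted without a filter, its differences from WT ran from -0.995 to 0.885 with no call by edgeR in 24 clones, none at an unadjusted p under 0.05, and a lowest adjusted p of 0.451. WT libraries held 6, 2 and 5 counts, so a loss of ABCC3 was not detectable at this depth.

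No member was called in the clones of ACTB (5.1% of genes called), ARID1B (6.86%), BCL7B (6.12%), BCL11A (4.14%), BCL11B (3.81%) and BCL7A (3.54%). The same held for BRD9 (3.28%), DPF2 (2.98%), PBRM1 (2.96%), SMARCA2 (2.19%), DPF1 (1.49%) and DPF3 (1.34%). In BCL7B cells ABCC2 passed the adjusted p with a log2 difference of 0.94 (adjusted p = 0.0169), just under the fold threshold.

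The double-loss table gave a separate set of libraries for SMARCA4 and ARID2. Its labels name no clone, so whether the knockout cells were those of the knockout table cannot be told. The ABCB1 differences given below were smaller than in that table, where they were -5.50 and -5.18 in the SMARCA4 clones and -4.997 in the ARID2 clone. In ABCB1, WT cells with control knockdown held 36.0 and 25.7 CPM. Replicate 1 exceeded replicate 2 in ABCB1 in all 6 groups, and in ABCG2 in 0 of 6. SMARCA4 knockout cells held 4.09 and 2.12 CPM, a log2 difference of -3.34 (SE 0.35, adjusted p = 0.00015; 6.09% of genes called), and with ARID2 knockdown added 3.54 and 2.62 CPM (-3.35, SE 0.36, adjusted p = 0.000141; 8.55% of genes called). The 2 SMARCA4 knockout groups overlapped, and the added ARID2 knockdown gave a difference of -0.02 (adjusted p = 0.999; 0.0205% of genes called). ARID2 RNA does not show a loss of ARID2 there (-0.60 against WT control, edgeR adjusted p = 0.262), so this cannot show what ARID2 loss does to ABCB1. ARID2 knockout cells held 5.80 and 4.89 CPM (-2.53, SE 0.34, adjusted p = 0.00286; 1.57% of genes called); without their replicate 2 the call was lost (adjusted p = 0.0639).

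When SMARCA4 was knocked down in ARID2 knockout cells, ABCB1 stood at 16.2 and 11.5 CPM, above both libraries of ARID2 knockout alone and below both WT control libraries. Against WT control the difference was -1.22 (SE 0.32, adjusted p = 0.0274; 9.31% of genes called), a call lost without WT control replicate 1 or without either of the group's own libraries. Against ARID2 knockout alone it was 1.31 (SE 0.34), which missed the threshold (adjusted p = 0.0551, with 2.88% of genes called). In edgeR with the replicate number as a block it was called (1.30, adjusted p = 0.00356). The effect of losing SMARCA4 on ABCB1 differed by 4.65 (SE 0.49, adjusted p = 0.00117; 1.06% of genes called) between ARID2 knockout and WT cells. This compares a knockdown in ARID2 knockout cells with a knockout in WT cells, since no group has the SMARCA4 knockdown alone, and the contrast was chosen after its values were seen. The WT double knockdown carries both knockdowns, with a SMARCA4 RNA difference of -1.84 that was not called (edgeR adjusted p = 0.104). ABCB1 differed there by 1.13, which was not called either. The corresponding difference for ARID2 loss, a loss that rests on the labels, was 2.52 (adjusted p = 0.101, with 0.281% of genes called). WT cells with both knockdowns had the highest ABCB1, 81.3 and 54.9 CPM, but this was not called against WT control (1.13, SE 0.31, adjusted p = 0.136, with 0.562% of genes called). Both were called in edgeR with the replicate number as a block (2.51, adjusted p = 0.00372, and 1.12, adjusted p = 0.00786), so these outcomes depend on the block.

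ABCG2 in the double-loss table was 0.829 and 1.15 CPM in WT control cells. SMARCA4 knockout cells held 13.55 and 16 CPM, a difference of 3.86 (SE 0.35, adjusted p = 6.068e-05). With ARID2 knockdown added they held 5.22 and 6.62 CPM (2.54 against WT control, SE 0.35, adjusted p = 0.000745), lower than both libraries of SMARCA4 knockout alone, a difference of -1.32 that was not called (adjusted p = 0.44). ARID2 knockout cells held 0.328 and 0.623 CPM, from 3 and 7 counts (-0.998, adjusted p = 0.538). SMARCA4 knockdown in these cells raised ABCG2 to 3.25 and 3.26 CPM, which was called both against ARID2 knockout alone (2.66, SE 0.42, adjusted p = 0.008) and against WT control (1.67, SE 0.36, adjusted p = 0.0119). The first call was lost without either ARID2 knockout library, and the other without WT control replicate 1 or with only these 2 groups in the fit. The WT double knockdown held 0.857 and 1.11 CPM, both inside the WT control range (-0.004, adjusted p = 0.998). Fibroblast markers summed to 95.4 to 158 CPM in the 2 SMARCA4 knockout groups, 40.8 to 51.9 CPM in ARID2 knockout cells with SMARCA4 knockdown and 26.5 to 35.1 CPM in WT control cells, and their part in the ABCG2 values was not tested.

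Over the 5 double-loss groups, 4 member comparisons with WT control were called lower, all in ABCB1, and 3 higher, all in ABCG2, beside 2.7% of all gene-group pairs lower and 2.52% higher. ABCC4 stayed below the threshold everywhere. It held 47.7 and 41.1 CPM in WT control, and both libraries of each of the 4 groups with SMARCA4 knockout or knockdown lay above these, between 50.96 and 74.95 CPM (log2 differences 0.42 to 0.64, adjusted p 0.0661 to 0.27). ABCC1 was 42.7 and 40.7 CPM in SMARCA4 knockout against 83.4 and 80.3 CPM in WT control (-1.02, adjusted p = 0.0569). In edgeR with the replicate number as a block this was called lower (-1.01, adjusted p = 0.0193). ABCC2 (4 to 12 counts a library) and ABCC5 (33.5 to 51.1 CPM) had no call, and ABCC3 was not tested.

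**Figure D5:**
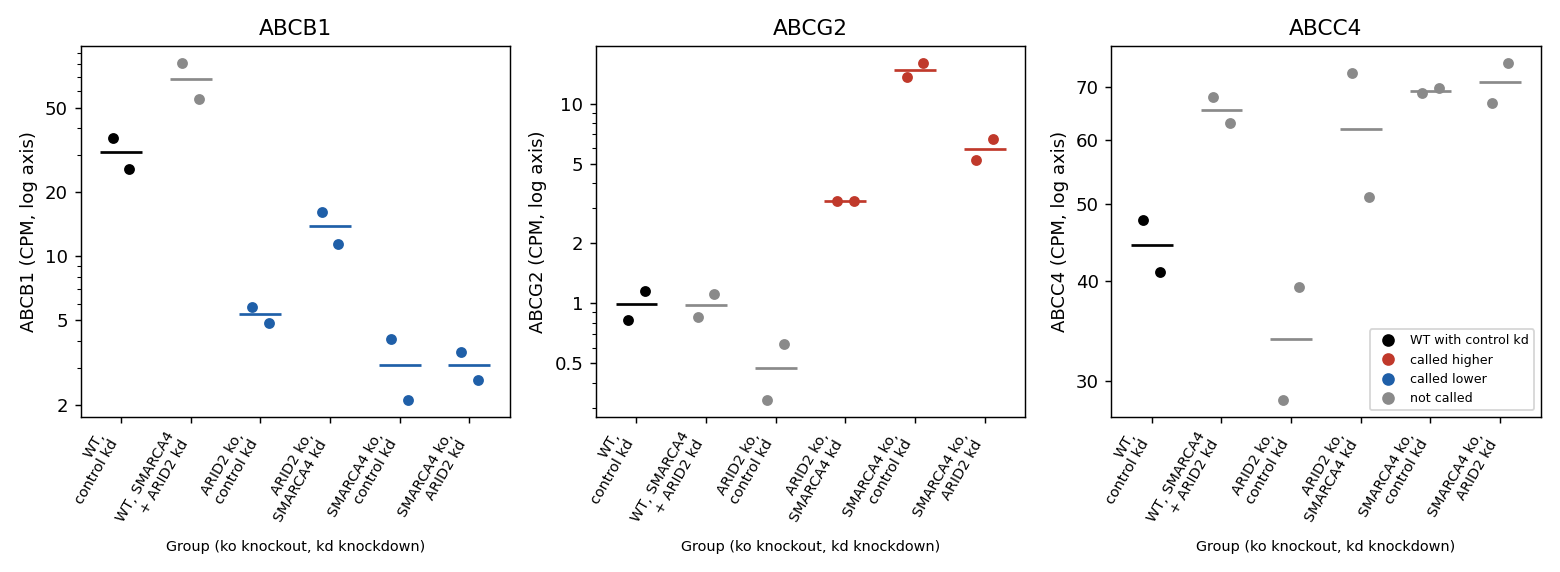
ABCB1, ABCG2 and ABCC4 in CPM (log axes) in the 12 double-loss libraries, 2 points a group with a bar at the mean, coloured by the call against WT with control knockdown. ABCB1 is below 4.1 CPM in both SMARCA4 knockout groups and 11.5 to 16.2 CPM in ARID2 knockout cells with SMARCA4 knockdown, while ABCG2 is above 3.2 CPM in all 3 of these groups.

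Other genes of drug handling were described through 7 fixed lists, of which the ABCB1 neighbours were one. Of the other ABC genes of subfamilies B, C and G, 14 of 21 were tested, and of 336 gene-clone pairs 0.893% were called higher and 2.98% lower, beside 2.46% and 2.24% over all genes, the shares to read each list against. The calls lay mainly in ABCB6, a mitochondrial and endosomal porphyrin transporter gene (5 clones lower), and ABCC6 (4 lower). For ABCC8, a subunit gene of potassium channels, there were 2 calls above WT and 1 below. Targets of NRF2, the oxidant-responsive factor known to act on several ABCC genes, had 0.463% of 432 pairs called higher and 0.694% lower, below both shares over all genes, with the 3 lower calls all in NQO1, a quinone reductase.

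Among 18 tested regulators of drug transporter transcription, 2.78% of 432 pairs were called higher and 2.08% lower, near the shares over all genes. All 12 higher calls were in ETS1 and all 9 lower calls in AHR, the aryl hydrocarbon receptor. ETS1 rose from 10.1 ± 2.3 CPM in WT (SD, n = 3) to 74.15 ± 4.66 and 79.95 ± 2.94 CPM in SMARCA4 clones 2878-4 and 2878-6 and 44.95 ± 7.22 CPM in the ARID2 clone, and it also rose to 37.85 ± 6.90 and 38.99 ± 3.39 CPM in ARID1A clones 618-10 and 618-3. Its remaining higher calls were in the ARID1B, BCL11A, BCL11B, BCL7A, BCL7B, PBRM1 and SMARCC1 clones, where ABCB1 was not called. In the BRD7 and SMARCD2 clones, with ABCB1 called lower, ETS1 was not called. AHR fell from 6.69 ± 1.52 CPM in WT to 1.53 ± 0.54 and 1.46 ± 0.42 CPM in the same SMARCA4 clones, 1.47 ± 0.53 CPM in the ARID2 clone, and lowest in ARID1A clone 618-3 at 0.762 ± 0.223 CPM. Its other lower calls were in ARID1A clone 618-10 and in the ACTB, DPF1, PBRM1 and SMARCC1 clones, with none in the BRD7 and SMARCD2 clones. Of the AHR targets, 11.8% of 144 pairs were higher and 17.4% lower, beside 2.46% and 2.24% over all genes: CYP1B1 was called in 5 clones higher and 11 lower, CYP1A1 in 10 higher, and ALDH3A1 in 1 higher and 6 lower. CYP1B1 held only 0.889 ± 0.056 CPM in WT (SD, n = 3). In SMARCA4 clones 2878-4 and 2878-6, the ARID2 clone and ARID1A clone 618-3 it was called lower, by log2 differences of -2.23, -2.38, -3.61 and -1.08. CYP1B1 values in the remaining clones with AHR called lower are not given here, so a match between AHR and CYP1B1 is not shown. CYP1A1, by contrast, was called lower in no clone.

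Genes of phase I and II metabolism and glutathione conjugation had 3.79% of 528 pairs higher and 1.33% lower, led by the glutathione transferase genes GSTM3 (2 higher, 6 lower) and GSTM2 (7 higher). GGT1, which encodes gamma-glutamyltransferase, was higher in 4 clones. Uptake carriers of the SLC families had 6.25% of 288 pairs higher and 4.17% lower, led by SLCO4C1, an organic anion carrier gene (7 higher, 7 lower), with SLC22A18 higher in 6 clones and SLCO3A1 lower in 3. The median log2 difference ranged over clones from -0.11 to 0.16 for the 18 tested NRF2 targets and from -0.83 to 0.74 for the 6 tested AHR targets. For all 16159 genes tested it ranged from -0.02 to 0.01. A median over few genes varies more than a median over all genes, so these ranges cannot be compared directly.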

How the data were processed

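RNA-seq of 87 HAP1 libraries was used. Per the labels' protocols, libraries were stranded, prepared from poly-A RNA, and sequenced as single reads of 50 bases. Per the submitters' processing notes, Trimmomatic, Bowtie, Picard and DESeq2 were used with GRCh37/hg19; for the counting tool, the annotation and the use of strand the sources used here give nothing. The authors deposited 2 tables of estimated counts per gene, which hold whole numbers, and a table of quantile-normalized log2 TPM, used for levels between genes and 1 alternative (71 columns). Of all columns, 8 matched no single labelled sample and were not used. Libraries were grouped by their labels. Each count table was fitted separately in edgeR 4.0.16 (R 4.3.3; filterByExpr, TMM, 1 term per group over all libraries, robust quasi-likelihood F-test), with Benjamini-Hochberg adjustment over all genes tested and calls where the adjusted p was at most 0.05 and the log2 fold change at least 1 in size. The fit was tested on simulated counts. DESeq2 1.42.0 and limma 3.58.1 served as alternatives, beside other filters, scalings and left-out libraries. All 7 transporters are named, with the 5 genes most like ABCB1 and 2 for each other tested transporter by r of log2 CPM (prior count 2), and up to 3 members of each list, those called in the most clones. One gene that this rule names is not reported here. The members and lists were chosen with earlier results of these data known, including that ABCB1 moves in both directions, so the calls describe these libraries and are no independent support for that choice. RefSeq windows (GRCh38.p14) were found for 5 of the 7 genes; other coordinates of that build were not used.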

Additional observations from a re-analysis of the deposited data

Results flagged for a closer look

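In 3 places a transporter's response differed between groups under one contrast by a test of the difference itself. ABCC2 differed between the 2 ARID1A clones (618-10 minus 618-3, 1.15 on the log2 scale, adjusted p = 0.017), with means of 2.30 and 1.04 CPM; the value lay between 0.97 and 1.20 over the alternatives, and the call was lost without the 4 libraries closest to another group or with only these 2 groups in the fit. ABCG2 differed between the 2 SMARCA4 clones (2878-6 minus 2878-4, 1.25, adjusted p = 0.00184), with means of 3.03 and 1.26 CPM, under all 8 alternatives run for it. The ABCB1 difference for SMARCA4 loss was 1.31 in ARID2 knockout cells and -3.34 in WT cells, which differ by 4.65 (adjusted p = 0.00117). That contrast was chosen after its values were seen, sets a knockdown against a separate knockout line, and has no WT group with the SMARCA4 knockdown alone. In the WT double knockdown ABCB1 also lay above its control, by 1.13 (adjusted p = 0.136, or 0.00786 in edgeR with the replicate number as a block). The causes were not tested.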

How the results depend on the processing

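Of the 32 calls printed for transporters, none changed direction, and 22 were called under every alternative run; over 498 repeats 25 lost a call. The counts of ABCB1 and of ABCG2 clones called higher, ABCB1 clones called lower and calls over both tables stayed within 1.5 times the values above. ABCG2 was called lower in 1 clone, in 0 with DESeq2's Wald test or without the 4 libraries closest to another group (an alternative added after the data were seen), in 0 with only 2 groups in the fit, where ABCG2 did not pass the filter for that clone, in 0 to 1 with a replicate left out, and in 2 by limma on log2 TPM; the cause was not tested. With 1 subtracted from every count, its difference in the ARID2 clone was -3.43. Between 2 clones of one gene, 1 transporter was called in place of 2 with only 2 groups in the fit. For knockdown inside a knockout, 1 call became 2 with DESeq2's Wald test and 2 with a replicate block, and ranged from 0 to 3 with 1 library left out, where the lone sample of a group is assumed to vary like the other groups. The replicate block gave 9 calls against WT control in place of 7 and 21 in the knockout table as before. Same-numbered libraries deviated together with a mean r of 0.04 for knockouts and 0.30 for double loss, where 13 of 15 pairs of groups exceeded 0.1 and the lowest was 0.09. The labels do not say what a number shares, and a pairing was to be taken only where every pair exceeded 0.1. The double-loss libraries narrowly missed it, and the results above are without the block except where it is named. With the replicate block, the ABCB1 differences in the WT double knockdown (1.12, adjusted p = 0.00786) and for SMARCA4 knockdown in ARID2 knockout cells (1.30, adjusted p = 0.00356) were called, as were ABCC1 in SMARCA4 knockout cells (-1.01, adjusted p = 0.0193) and the ABCB1 difference for ARID2 loss between SMARCA4 knockout and WT cells (2.51, adjusted p = 0.00372). ABCC3 and the ABCG2 calls near 1 to 7 counts are limited by depth.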
